A study of Culex quinquefasciatus with 12 samples.

Results

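The 200 genes with the brightest spots in untreated larval midgut of the mosquito Culex quinquefasciatus are described here, out of 19751 genes on the array. For each gene, the median untreated signal over its spots was ranked within each array, and the 200 genes with the lowest mean rank over all 12 arrays were taken. Spot brightness depends on the probe as well as on the transcript, so these are the brightest genes and not a measured order of abundance. Each array compared midgut RNA of untreated larvae, labelled with Cy3, with midgut RNA of larvae exposed to Bin toxin, labelled with Cy5, after 6, 12 or 18 h, with 4 biological replicates at each time. The larvae were third-instar animals of the JHB strain. The toxin was a mixture of BinA and BinB at 80 ng/ml, a dose that kills most larvae, given after 3 h of starvation. Each biological replicate was set up with 20 larvae, and RNA came from their pooled midguts. Only larvae still alive at the time of collection were dissected, and the dyes were not swapped. Each time point had a slide of its own for its 4 arrays, so slide and time cannot be told apart. The untreated signal that chose the genes is also the denominator of the toxin-to-untreated ratio, a selection that leans towards low ratios.

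Bin toxin is made by the bacterium Lysinibacillus sphaericus and is active in the larval midgut, where BinB binds a receptor of the brush border, an alpha-glucosidase in Culex larvae, and BinA carries the toxic activity. The midgut epithelium secretes the enzymes that break down starch, protein and fat, absorbs and stores the products, and carries detoxification enzymes and receptors for bacterial cell walls. Most of the named genes described here are of these kinds, but 148 of the 200 have no name in the study's tables.

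Of the 200 genes, 52 have a name in the study's tables, 41 of them with a stated function and 11 as hypothetical proteins, and 148 are given by identifier alone. The tables name only genes that the study listed as regulated in these samples, apart from ribosomal protein S7. The starch-digesting enzymes were alpha-amylase A (CPIJ001464), both genes named alpha-amylase B (CPIJ005060 and CPIJ005061), an alpha-glucosidase (CPIJ013171) and maltase 1 (CPIJ013170). The proteases were trypsin theta (CPIJ006077), tryptase gamma (CPIJ006079), a serine-type endopeptidase (CPIJ002132), brachyurin (CPIJ011433), zinc carboxypeptidase A 1 (CPIJ010137) and lysosomal pro-X carboxypeptidase (CPIJ008876). The lipid genes were pancreatic triacylglycerol lipase (CPIJ004225), the lipases CPIJ004227 and CPIJ004228, acyl-CoA desaturase 1 (CPIJ013748), sterol carrier protein-2 (CPIJ015124), a pair of acyl-CoA dehydrogenases (CPIJ009148 and CPIJ008217), acyl-CoA oxidase (CPIJ006187), a nonspecific lipid-transfer protein (CPIJ004370) and a sphingomyelin phosphodiesterase (CPIJ012159). Cytochrome P450 3A19, catalase, superoxide dismutase, a pair of glutathione S-transferases, a carboxylesterase, a cholinesterase and cytochrome B5 made up the detoxification and redox enzymes. The pattern recognition proteins were a peptidoglycan recognition protein (CPIJ016771) and a pair of gram-negative bacteria binding proteins (CPIJ004321 and CPIJ004324). Related genes often had neighbouring identifiers. Of the 200 genes, 62 had another of the set within 3 identifier numbers, against 36 of the next 200 genes in the order of brightness, and near-identical copies may share probe signal.

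The labelled tissue was checked against marker genes. Of 24 midgut markers (amylases, alpha-glucosidases, digestive proteases, aminopeptidases and peritrophins), 5 were among the 200 brightest and 16 among the 1000 brightest genes, with a median position of 637.5. The others were mostly digestive proteases. The dimmest were a zinc carboxypeptidase A 1 at 11013, chymotrypsin-2 genes at 10892 and 9259 and trypsin 2 at 8923. These lay beyond the dimmest muscle marker, at 8142. No marker of fat body (9 hexamerins and larval serum proteins, median position 1563, highest 675), muscle (5 genes, median 4416) or epidermis (9 cuticle proteins, median 7788) was among the 200. The muscle genes and larval serum proteins were all well above background on all 12 arrays in the untreated channel. The part of RNA from other tissues in the results below was not tested.

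**Figure D1:**
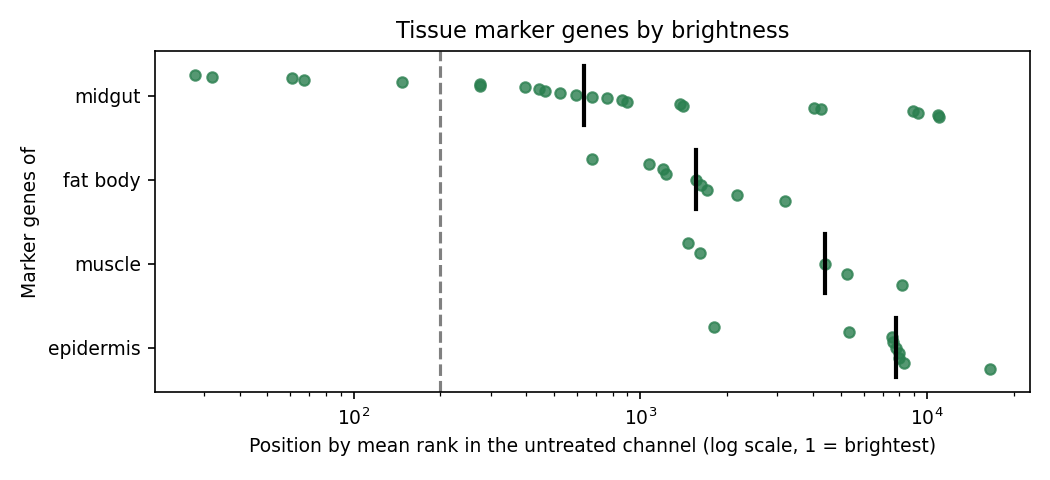
Position of marker genes of 4 tissues when all 19751 genes are ordered by mean rank in the untreated channel (horizontal axis, log scale, 1 = brightest). Each point is a gene, the black bars are medians and the dashed line marks position 200. The 5 markers inside the line are all midgut genes, 3 amylases, an alpha-glucosidase and maltase 1.

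The 10 brightest genes by mean rank were CPIJ000770, CPIJ015586, CPIJ015127, CPIJ011018, CPIJ002512, CPIJ016608, CPIJ002127, CPIJ011923, CPIJ000771 and CPIJ006078, with mean ranks from 25.75 to 39.5, and none of them has a name in the study's tables. Their order carries no information, because 7 of the 10 had every spot saturated in the untreated channel on all 12 arrays and the other 3 on 11. All 10 were saturated in the toxin channel on all 12 arrays. At the other end, CPIJ000026 and CPIJ009683 were the last genes inside the set, with mean ranks of 187.25 and 190.5. Cytochrome P450 17A1 (CPIJ010543) and a glyoxylase (CPIJ017624) were the first outside it, at 192.08 and 192.58. On single arrays, between 142 and 184 of the 200 genes were among that array's 200 brightest, and 76 were so on every array. Ranking by the toxin channel instead kept 149 of the 200, and all 200 were among the 400 brightest there. That order is not resolved either, since 236 to 339 genes per array had every spot saturated in the toxin channel.

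Saturation set what could be learned about the response of these genes. The 200 genes have 429 spots on each array, 2 spots each for 181 genes and 3 or 4 for the other 19. In the untreated channel, the share of these spots at the scanner limit (65535 units) ranged from 48.3% to 66.0% on the 6 h arrays, from 73.4% to 89.7% at 12 h and from 51.5% to 78.6% at 18 h. In the toxin channel (limit 65528 units) it was 97.2% to 99.8% at 6 h and between 91.6% and 97.9% on the later arrays. Over the 2400 pairs of a gene and an array, 1280 were saturated in both channels and held no information on the change. In 967 pairs only the toxin channel was saturated, which gives a lower limit on the ratio, and in 51 only the untreated channel, which gives an upper limit. In 102 pairs at least 1 spot was below the limit in both channels and the ratio was measured. Every gene had every spot saturated in the toxin channel on at least 1 array, 167 of them on all 12. For 39 genes both channels were saturated on all 12 arrays.

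**Figure D2:**
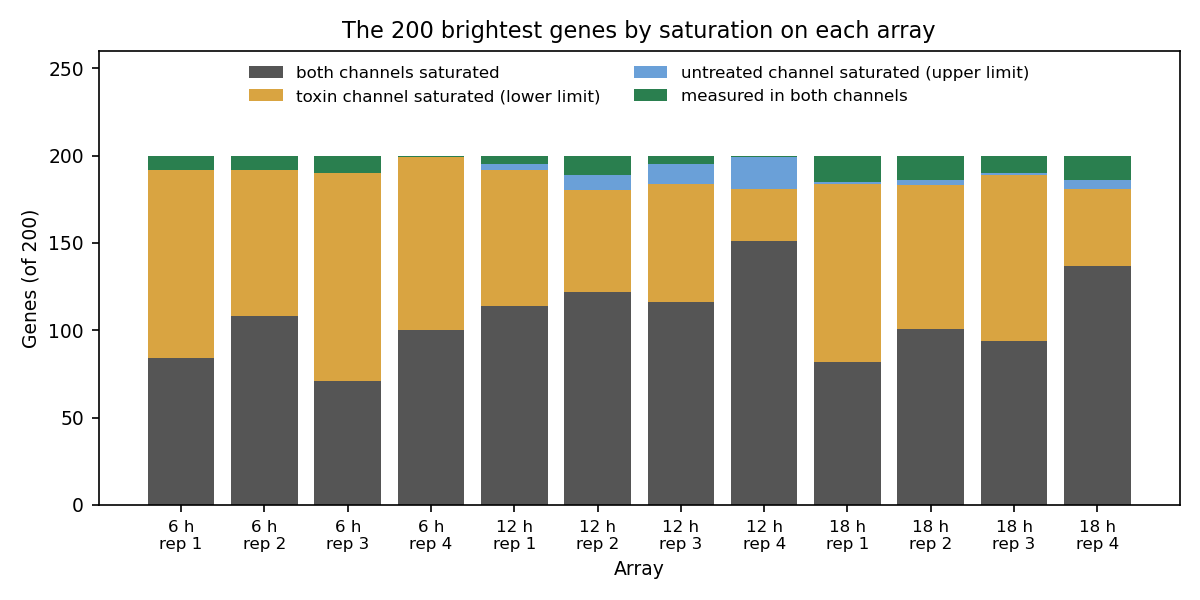
Number of the 200 brightest genes (vertical axis) on each of the 12 arrays by the state of their spots. Dark grey stands for both channels saturated, amber for only the toxin channel saturated, blue for only the untreated channel saturated and green for a ratio measured in both. Between 1 and 15 genes per array were measured, the fewest on 6 h replicate 4 and 12 h replicate 4.

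The toxin channel was the brighter one on most arrays, which limited how high a ratio could be measured. Over 1568 to 2174 unsaturated spots per array of intermediate brightness (4000 to 16000 untreated units), the median log2 ratio of raw toxin over untreated signal was 0.41 to 0.80 at 6 h, −0.28 to 0.18 at 12 h and 0.53 to 1.1 at 18 h. After subtracting this dye balance, a spot at the limit of the untreated channel came off the limit of the toxin channel only with a log2 ratio below −0.80 to −0.41 at 6 h, −0.18 to 0.28 at 12 h and −1.1 to −0.53 at 18 h, depending on the array. For a member spot of median brightness among those unsaturated in the untreated channel, that bound was −0.54 to −0.13 at 6 h. It was 0.06 to 0.40 at 12 h and −0.72 to −0.32 at 18 h. Measured values among these genes lean low by this construction, least so at 12 h. Their median describes the genes that could be measured and not the set of 200. Of the 102 measured values, 96 were below 0 after loess normalization, 24 of 27 at the first time, 19 of 22 at the second and all 53 at the third. The lowest was −1.77 and the highest 0.49. Of the 102, 38 rested on 2 or more spots and 64 on 1.

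A gene was tested at a time point when it was measured on at least 3 of the 4 arrays, and counted as changed where the adjusted p was below 0.05 and the log2 ratio at least 0.75 from 0 (1.68-fold). This left 2, 4 and 10 of the 200 genes at 6, 12 and 18 h, 11 different genes in all. At 6 h 1 of 2 was called lower, at 12 h 1 of 4 and at 18 h 4 of 10, while none was called higher. Over all 19449, 19452 and 19433 genes tested, 2.5%, 4.39% and 1.49% were called lower and 1.64%, 3.06% and 1.44% higher. By adjusted p alone, 2 of 2, 3 of 4 and 10 of 10 were lower and none was higher, where 9.16%, 17.9% and 6.04% of all genes were lower and 7.81%, 15.6% and 7.97% higher. Because of the ceiling on what could be measured, these shares cannot be read as a property of the 200 genes. No member differed between time points beyond the threshold, of 1, 3 and 2 genes that could be tested for 12 against 6 h, 18 against 12 h and 18 against 6 h, where 0.329%, 0.649% and 0.958% of all genes were called lower and 0.52%, 1.52% and 1.83% higher.

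Trypsin theta, a serine protease of the trypsin family that cuts dietary protein, fell the furthest of the tested genes. At 18 h its untreated spots averaged 60769, 50177, 61117 and 65153 units in replicates 1 to 4, and its toxin spots 50844, 36298, 65104 and 54926. These averages hold 1 saturated spot of 2 in replicates 1, 3 and 4, which the ratios leave out, so that the ratios rest on 1 spot on 3 of the 4 arrays. The log2 ratios were −1.56, −1.49, −1.04 and −0.99, all 4 of them well below 0. Their mean was −1.27 ± 0.30 (SD, n = 4), a 2.41-fold fall, with an adjusted p of 0.00484. At 6 h the toxin channel was saturated on 3 of the 4 arrays and replicate 2 gave −0.29, so that the mean change at 6 h was at least −0.26 on the log2 scale under the loosest of 3 dye balances. All 4 values at 18 h lay below all 4 values or lower limits at 6 h under each of the 3 balances, and the mean at 18 h was lower by at least 0.89. At 12 h the untreated channel was saturated on all arrays. This left upper limits on 3 arrays and no information on 1, where both channels were saturated, so the mean at 12 h had no limit.

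Lipase CPIJ004227, an enzyme that cleaves fatty acids from lipids, was the only member tested at all 3 times. At 6 h its log2 ratios were −1.40, −1.02 and −0.44 in replicates 1 to 3. The mean was −0.96 ± 0.48 (SD, n = 3) with an adjusted p of 0.0254. Replicate 4 was saturated in the toxin channel and left out, and can only have been above a limit of −0.47 on the balance of the intermediate spots, so the mean of the others is lower than a complete mean could be shown to be. At 12 h the ratios were −1.12, −1.15 and −0.30 in replicates 1 to 3, with a mean of −0.86 ± 0.48 (SD, n = 3) and an adjusted p of 0.0227. At 18 h they were −1.13, −1.29 and −0.61 in replicates 1, 2 and 4, with a mean of −1.01 ± 0.35 (SD, n = 3) and an adjusted p of 0.0257, and replicate 3 had only a lower limit. The lipase was thus below 0 on all 9 arrays that measured it, with SDs between replicates of 0.35 to 0.48. Its levels at the 3 times did not differ beyond their spread, with differences of −0.16 to 0.10 (SE 0.32) and adjusted p from 0.834 to 0.947. The lower limits on its mean over 4 arrays were −0.88 at 6 h and −0.97 at 18 h, and the upper limit at 12 h was −0.56, a fall of at least 1.47-fold. The related lipases CPIJ004225 and CPIJ004228 were saturated in the toxin channel on all 12 arrays.

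Sterol carrier protein-2, which moves sterols and fatty acids between membranes inside the cell, was measured in 3 replicates at 18 h. Its log2 ratios were −1.03, −1.05 and −1.41, with a mean of −1.16 ± 0.21 (SD, n = 3), a 2.24-fold fall, and an adjusted p of 0.00823. In replicate 4 the untreated channel was saturated and the ratio was below −0.76 on the balance of the intermediate spots. With that array included, the mean was at most −0.72, a fall of at least 1.65-fold. At 6 and 12 h it was saturated in both channels on 1 and 3 arrays and no mean could be bounded.

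Mitochondrial malate dehydrogenase 2, an enzyme of the citric acid cycle, gave log2 ratios of −0.72, −0.61, −0.93 and −0.90 at 18 h. The mean of −0.79 ± 0.15 (SD, n = 4) had an adjusted p of 0.0033 and lay just past the threshold. At 6 h its change was at least −0.55. The mitochondrial ATPase inhibitor, a small protein that blocks the reverse reaction of ATP synthase, was chosen for mention after its values were seen. At 18 h it gave −1.64 and −1.77 in replicates 2 and 3 and only upper limits in replicates 1 and 4, since the untreated channel was saturated there. Its toxin signal was between 40089 and 49087 units on all 4 arrays at 18 h. At 12 h it was at the limit in replicate 1 and 60252, 42948 and 50052 units in replicates 2 to 4, and at 6 h it was at the limit on all 4 arrays. These raw signals come from slides with different dye balances and do not compare the times. The mean change at 18 h was at most −1.30, a fall of at least 2.46-fold and the furthest limit on a fall among the 200 genes at any time.

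These calls depended on the dye curve at the bright end. When saturated spots were kept in the loess fit and left out only of the gene means, 0, 1 and 2 members were called lower at 6, 12 and 18 h. With each array centred on the median of all its spots, none was called at any time.

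**Figure D3:**
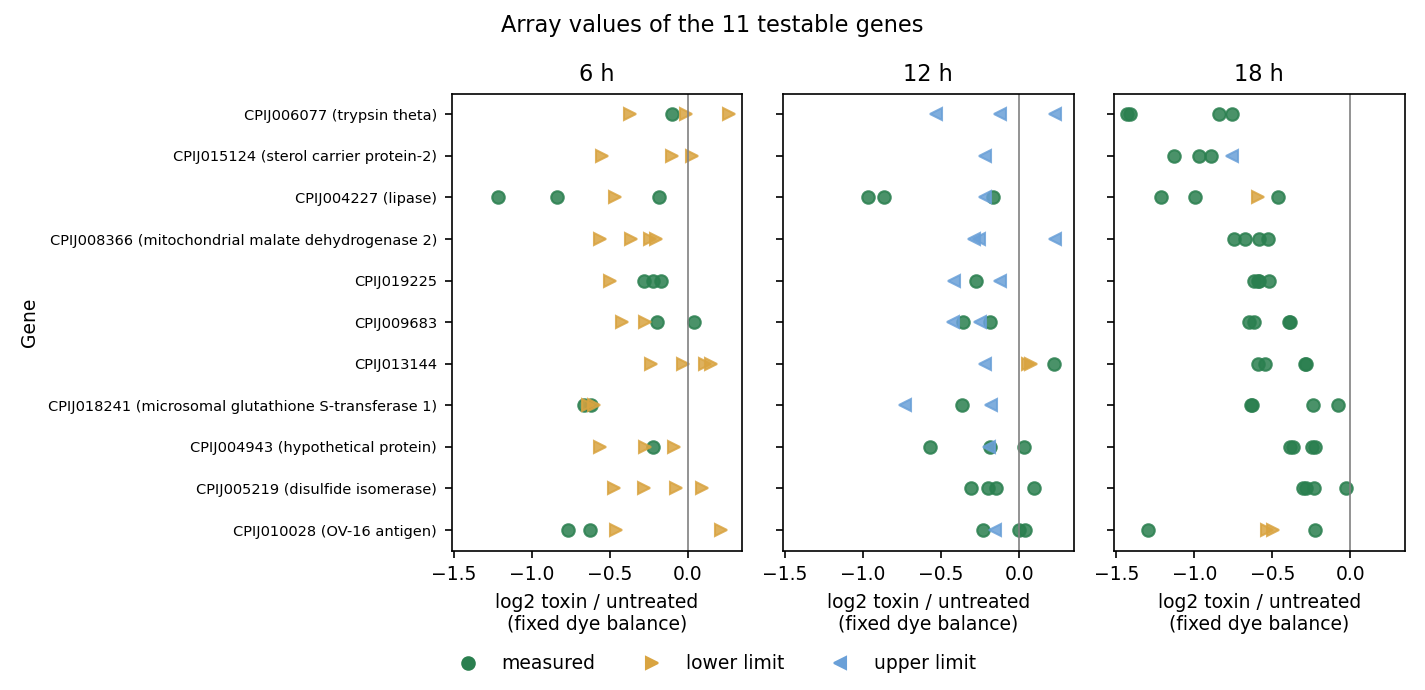
Log2 ratio of toxin over untreated signal (horizontal axis) for the 11 genes measured on at least 3 arrays at 1 or more times, after subtracting the fixed dye balance of the spots of intermediate brightness, at 6, 12 and 18 h. Each symbol is an array; circles were measured in both channels, right-pointing triangles are lower limits (toxin channel saturated) and left-pointing triangles upper limits (untreated channel saturated), and arrays with both channels saturated are not drawn. The 4 trypsin theta values at 18 h lie to the left of every value and limit at 6 h.

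The other 7 tested genes changed by less than the threshold. CPIJ019225, which has no name in the study's tables, gave −0.75, −0.67, −0.78 and −0.74 at 18 h, a tight group with a mean of −0.74 ± 0.05 (SD, n = 4) and an adjusted p of 7.98e-05, the smallest of any member. At 6 h its mean was −0.45 ± 0.10 (SD, n = 3) with an adjusted p of 0.000863. The difference between 18 and 6 h was −0.29 (SE 0.06) with an adjusted p of 0.0391, short of the size threshold. CPIJ009683 and CPIJ013144 averaged −0.67 ± 0.10 and −0.58 ± 0.13 at 18 h (SD, n = 4), with adjusted p of 0.000228 and 0.00564. CPIJ013144 at 18 h also lay below all of its 6 h limits under each dye balance, by at least 0.26. Trypsin theta and CPIJ013144 were the 2 of 8 genes that could be compared in this way and did not overlap, where 18% of the comparable genes among the next 200 did not.

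Microsomal glutathione S-transferase 1, a membrane enzyme of detoxification, fell by 0.54 ± 0.32 on the log2 scale at 18 h (SD, n = 4; adjusted p 0.0384), with replicates 1 and 2 at −0.21 and −0.32 and replicates 3 and 4 at −0.85 and −0.78. Disulfide isomerase (CPIJ005219), which forms disulfide bonds in secreted proteins, was measured on all 4 arrays at both later times. It gave −0.34 ± 0.17 at 12 h and −0.36 ± 0.12 at 18 h (SD, n = 4), with adjusted p of 0.00754 and 0.0144, and the times did not differ beyond their spread (−0.02, SE 0.10, adjusted p 0.933). At 6 h its change was at least −0.39. The hypothetical protein CPIJ004943 gave −0.44 ± 0.23 at 12 h (SD, n = 3) and −0.46 ± 0.09 at 18 h (SD, n = 4), with adjusted p of 0.00884 and 0.0104. OV-16 antigen, named after a parasite antigen of the phosphatidylethanolamine-binding family, gave −0.26 ± 0.13 at 12 h (SD, n = 3; adjusted p 0.343). It was not tested at the other times, where 2 arrays each gave −0.96 and −0.81 at 6 h and −1.43 and −0.38 at 18 h.

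A further 18 genes were measured on 1 or 2 arrays at a time and were not tested. Brachyurin, a serine protease, gave −1.05 and −0.79 on the 2 arrays that measured it at 18 h. Acyl-CoA oxidase, which begins the breakdown of fatty acids in the peroxisome, gave −0.75 and −0.31 at 6 h and −0.93 on 1 array at 18 h. On single arrays at 18 h, beta-galactosidase gave −1.04, carboxylesterase −1.31, the gram-negative bacteria binding protein CPIJ004324 −1.06 and the serine-type endopeptidase −0.89. Lysosomal pro-X carboxypeptidase gave −0.49 and −0.32 at 6 h. Tubulin alpha-1, a building block of microtubules, gave −0.58 and −0.48 at 6 h and −0.22 on 1 array at 18 h. The 6 measured values that were not below 0 came from 5 genes. Catalase gave 0.00 on 1 array at 6 h and 0.07 on 1 array at 12 h. At 6 h CPIJ011929 gave 0.02 on 1 array, and the hypothetical protein CPIJ001036 gave 0.17 on 1 array and −0.45 on another. At 12 h the gram-negative bacteria binding protein CPIJ004321 gave 0.25 and CPIJ014062 0.49, each on 1 array.

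For the remaining genes the data hold limits. A mean change over the 4 arrays of a time point was bounded from below when every array had either a measured ratio or a saturated toxin channel alone, and the loosest value over 3 dye balances was kept. At 6 h 63 genes had such a lower limit, from −0.88 to 0.09 with a median of −0.48. Of these limits 61 were above −0.75, so that these genes had not fallen past the threshold under any of the 3 balances. A limit from a saturated toxin channel cannot fall much below minus the dye balance. The balance behind the loosest limits was 0.59 to 0.96 on the 6 h arrays. The count of 61 was thus nearly fixed in advance and does not measure a response of the set. The cellular retinaldehyde-binding protein CPIJ014226, a carrier of retinoids, had the only limit above 0, at 0.09, on 4 of 4 arrays with a saturated toxin channel. No gene had an upper limit at 6 h. At 18 h 45 genes had lower limits, from −0.98 to −0.32 with a median of −0.70, of which 29 were above −0.75, and all were below 0. A lower limit below 0 does not show a fall. Both channels were saturated on all 4 arrays for 57, 88 and 70 genes at the 3 times, and another 80, 87 and 75 had a mixture of states that allowed no limit. Over the 3 times, 86 of the 200 genes had a limit or 4 measured arrays at 1 or more times and 114 had none at any time.

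At 12 h the dye balance was near 0. Where only the toxin channel is saturated, the raw ratio is near or above 0. A limit then cannot fall much below minus the dye balance, and only genes off the untreated limit can have one. The sign of most lower limits at 12 h was thus nearly fixed in advance, and the number above 0 does not measure a response of the set. Lower limits existed for 19 genes, from −0.02 to 0.85 with a median of 0.11, and 18 of them were above 0. The highest belonged to CPIJ003802, a gene without a name in the study's tables that was chosen for mention after its values were seen. Its untreated signal was 33401, 32371, 29471 and 36496 units in replicates 1 to 4 at 12 h, and its toxin signal was at the limit on all 4 arrays. On the balance of the intermediate spots the 4 ratios were at least 0.79, 1.26, 1.03 and 1.12, all above 0. Under the loosest balance the mean rise at 12 h was at least 0.85 on the log2 scale, 1.80-fold. With the toxin channel at its limit on every array, no size or test of the rise can be given. At 6 h its untreated channel was saturated on 3 arrays, and at 18 h the limit was −0.43, so a rise at those times was neither shown nor bounded from above. The toxin channel of CPIJ003802 was saturated on all 12 arrays, so its limits differ between times through the untreated signal and the dye balance alone. That untreated signal was 64088 to 65535 units at 6 h and 41278 to 48552 at 18 h, higher than at 12 h. Whether untreated larvae or slides differed at 12 h was not tested.

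The next highest limits at 12 h were those of CPIJ014062 (0.46), CPIJ008166 (0.38) and CPIJ005652 (0.32), none with a name in the study's tables. The gram-negative bacteria binding protein CPIJ004321, which recognises bacterial cell walls, had a lower limit of 0.10. Upper limits below 0 at 12 h belonged to 5 genes: the lipase CPIJ004227 (−0.56), CPIJ009683 (−0.31), CPIJ004943 (−0.23), tubulin alpha-1 (−0.12) and OV-16 antigen (−0.09). At 18 h the 2 upper limits were those of the mitochondrial ATPase inhibitor and sterol carrier protein-2 given above.

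**Figure D4:**
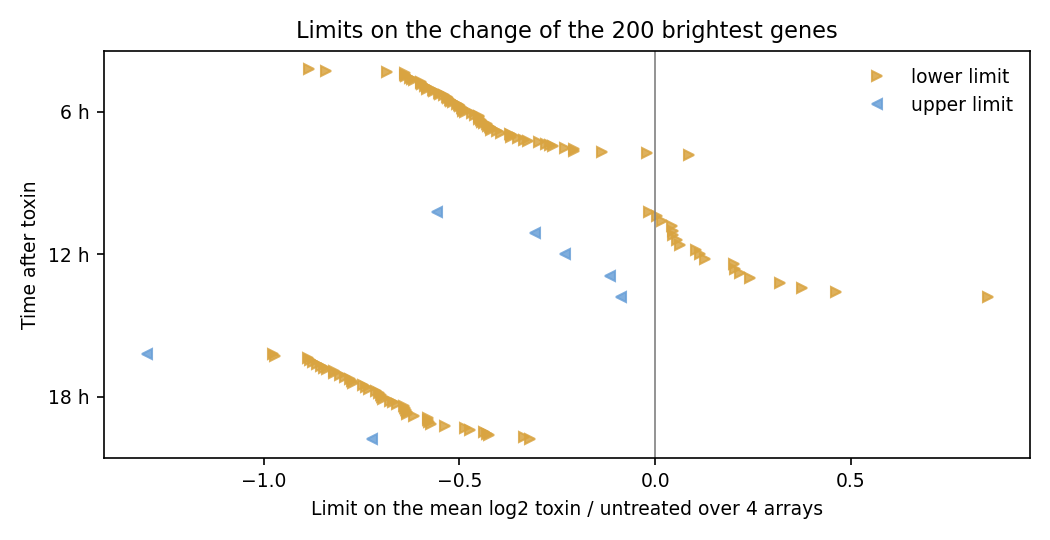
Limits on the mean log2 ratio of toxin over untreated signal over 4 arrays (horizontal axis) at each time, taking the loosest of 3 dye balances. Each amber triangle is the lower limit of a gene whose toxin channel was saturated on arrays where its untreated channel was not, and each blue triangle an upper limit. At 12 h 18 of 19 lower limits lie above 0, up to 0.85, and at 18 h all 45 lie below 0. Lower limits start near minus the dye balance of each time, and different genes have one at each time. The shift between times therefore does not show a change of the genes.

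By function, the 5 starch-digesting enzymes were the least resolved. All 5 were saturated in both channels on all 4 arrays at 12 h and 4 of 5 were at 18 h. The only limit was that of maltase 1 at 6 h, a change of at least −0.57. Of the 6 proteases, trypsin theta fell at 18 h, and 3 had lower limits at 6 h between −0.58 and −0.26. Brachyurin and the serine-type endopeptidase had limits of −0.85 and −0.77 at 18 h. Tryptase gamma, a trypsin-like protease, was saturated in both channels on all 12 arrays.

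Of the 10 lipid genes, lipase CPIJ004227 and sterol carrier protein-2 fell at the times given, and 7 were saturated in both channels on all arrays at 12 h. Limits for 5 of them at 6 h ran from −0.88 to −0.27, the highest being that of the sphingomyelin phosphodiesterase, which splits a membrane lipid. Acyl-CoA desaturase 1, which introduces double bonds into fatty acids, was saturated in both channels on all 12 arrays. Of the 8 detoxification and redox enzymes, 6 had limits at 6 h, from −0.84 for microsomal glutathione S-transferase 1 to −0.14 for catalase, which breaks down hydrogen peroxide. None of the 8 was called, but only 1 of them, microsomal glutathione S-transferase 1 at 18 h, could be tested. Superoxide dismutase, which removes superoxide, had limits of −0.68 at 6 h and −0.70 at 18 h. The pattern recognition proteins CPIJ004324 and CPIJ004321 had limits of −0.28 and −0.37 at 6 h and −0.89 and −0.84 at 18 h. The peptidoglycan recognition protein was saturated in both channels on all 12 arrays. Ribosomal protein S7, a part of the small ribosomal subunit, had no limit at any time.

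Lists of genes were made from the study's tables by name. Apart from ribosomal protein S7, they hold only genes that the study chose on these samples. Of these lists, 5 of 13 amylases and alpha-glucosidases were among the 200 brightest, 3 of 22 lipases and 4 of 140 antioxidant and detoxification enzymes. So were 3 of 36 immune effectors, 1 of 35 trypsin and chymotrypsin family proteases and 1 of 27 exopeptidases. The lists of cytosolic translation (22 genes), secretory pathway folding (19) and cytoskeleton and muscle (12) each had 1 member. These lists were made by names and are narrower than the groups above, so catalase, tryptase gamma, brachyurin, the serine-type endopeptidase and lysosomal pro-X carboxypeptidase are in none of them. None of 15 peritrophic matrix, 6 vacuolar ATPase, 20 oxidative phosphorylation, 17 heat shock, 22 storage protein or 24 cuticle genes was among the 200. The members called were trypsin theta at 18 h and lipase CPIJ004227 at all 3 times, and no list had a member called higher. No list had more than 1 member that could be tested at a time.

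The next brightest genes were better resolved. Among the 200 genes that followed in brightness, 107, 108 and 99 were tested at 6, 12 and 18 h, against 2, 4 and 10 of the brightest 200. Of those, 10, 21 and 29 were called lower and 0, 7 and 0 higher, with median log2 changes of −0.12, −0.08 and −0.44. Of the genes among these 200 that were not tested, 92 of 93 at 6 h, 85 of 92 at 12 h and every one at 18 h had only the toxin channel saturated on 1 or more arrays, so the tested ones lean towards low ratios here too. Among the 400 after these, of which 390, 390 and 375 were tested, 49, 85 and 61 were called lower and 23, 50 and 7 higher. Their medians were −0.04, −0.08 and −0.24. Over all genes tested the medians were 0.00 at each time, a value that loess normalization sets and that is no independent comparison. The groups by brightness were formed by the untreated signal, the denominator of the ratio, so medians of bright groups lean low. At 18 h 29.3% of the tested genes in the first of these groups and 16.3% in the second were called lower, against 1.49% of all genes. When the members were chosen on the 8 arrays of 6 and 12 h alone, 11 of the 200 genes were replaced and 9 were called lower at 18 h. These were the 4 genes above and 5 others, cytochrome P450 17A1, glyoxylase, peroxisomal multifunctional enzyme type 2, prolylcarboxypeptidase (CPIJ008874) and a hypothetical protein (CPIJ007300). Cytochrome P450 17A1 and glyoxylase, the first genes outside the limit of rank, fell by 1.41 and 1.49 on the log2 scale at 18 h (adjusted p 0.000136 and 0.000186, n = 4).

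**Figure D5:**
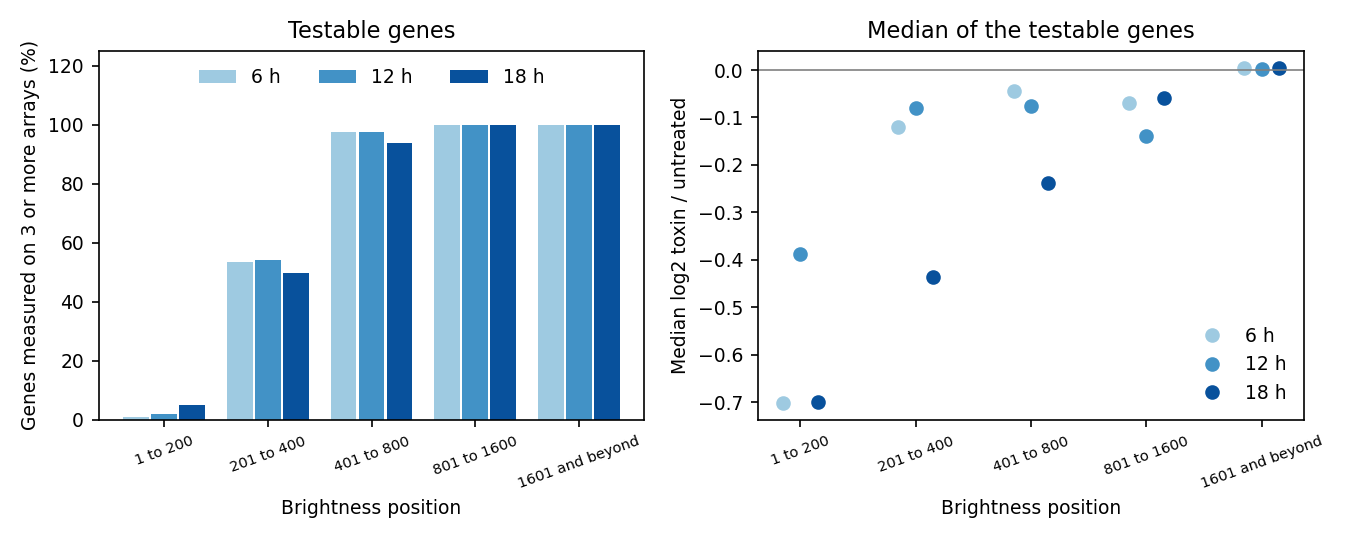
Genes grouped by position in the order of untreated brightness (horizontal axis), with the share measured on at least 3 of 4 arrays at 6, 12 and 18 h (left, percent) and the median log2 ratio of the tested genes (right). The brightest 200 had 1% to 5% tested, the next 200 between 49.5% and 54%, and all later groups more than 93%. Groups were formed by the untreated signal, the denominator of the ratio, so medians of bright groups lean low.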

How the data were processed

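Intensity values per spot and channel (medians of spot and local background pixels, and dye-normalized processed signals) were deposited as the output of Agilent Feature Extraction 11.5.1.1, which the authors ran on the scanned images. Its log10 ratios and the authors' deposited log2 ratios (background-corrected and loess-normalized) served as alternatives.

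Members and lists were chosen with earlier results of these data known. For each array, normexp (offset 50) was applied to median signals, saturated and outlying spots were set to missing, log2 ratios were normalized by loess without the 1417 control spots of 45220, and spots were averaged per gene. A mean per time was fitted over all 12 arrays (R 4.3.3, limma 3.58.1, lmFit and eBayes), with Benjamini-Hochberg adjustment over all genes measured on at least 3 of 4 arrays. The number of arrays limits the precision.

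Limits used raw log2 ratios minus each of 3 dye balances: the median of unsaturated spots of 4000 to 16000 untreated units, and the loess curve at the bright end (mean log2 brightness above 15.5) with or without saturated spots. The pipeline was tested on simulated data. Each simulated array had the same dye balance at all brightnesses, so the dye curve at the bright end was not tested.

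Named are the 10 brightest members, called members, members of the lists that were called, and 2 genes on each side of the rank limit; others were chosen after their values were seen. Reference tables matched 0 identifiers. Alternatives varied background correction, normalization, spot filters, fit, thresholds, choice of members and arrays. No probe sequence was used here.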

Additional observations from a re-analysis of the deposited data

Results flagged for a closer look

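On 6 h replicate 4, 99.8% of the 429 spots of the 200 brightest genes were saturated in the toxin channel, against 97.2% to 97.4% on the other 3 arrays of that time. The gap to the nearest array was larger than expected for 4 values at the 95% level. Only 1 member was measured on that array, and no member was tested at 6 h with a value from it. Chance flags about 1 in 20 groups, and 33 groups of 4 arrays were examined.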

How the results depend on the processing

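At most 10 of the 200 genes could be tested at a time, so counts of calls move by whole genes and these results carry little weight beyond the single genes; depth of the signal is not the limit, saturation is. Trypsin theta at 18 h kept its call in 32 of 34 alternatives, and was lost only with median centring (−0.65) and with scale normalization (−2.05, adjusted p 0.281). Sterol carrier protein-2 kept its call in 26 of 33, malate dehydrogenase 2 in 23 of 34, and lipase CPIJ004227 in 22 of 32 at 6 h and 24 of 32 at 12 and at 18 h. No direction was reversed for these genes. The causes were not tested.

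Counts of members called lower at 6, 12 and 18 h (1, 1 and 4, which are 4 genes) were 0 at all 3 times with median centring and with scale normalization, and also with spots over the bright limit left out, where no member was left to test. They were 0, 0 and 2 (2 genes) when 4 of 4 arrays were needed and when both channels' ranks chose the members, and 2, 3 and 10 (10 genes, 1 differing between 18 and 6 h) with no fold threshold. The 100 brightest genes gave 0, 0 and 1 (1 gene). The 400 brightest gave 11, 22 and 33 (47 genes called at 1 or more times), 7 higher at 12 h, and 2, 10 and 11 that differed between 12 and 6, 18 and 12, and 18 and 6 h. The deposited log ratios gave 0 at 6 h and 1 at 18 h (2 genes in all), and the scanner's log ratio 0 at 6 h. With the brightest probe alone, or with a separate fit of each time, the counts at 6 and 12 h were 0. Without the 3 arrays of narrow log ratios the count at 12 h was 0. With members chosen in the toxin channel the counts were 0, 0 and 2, with 1 higher at 12 h, and members chosen on the other times' arrays gave 9 at 18 h. With saturated spots kept as they stand, where a saturated channel has no spread and the p-values cannot be relied on, 0 were lower at 6 and 12 h, 1 was higher at 12 h, and 1, 4 and 4 differed between 12 and 6, 18 and 12, and 18 and 6 h.

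Alternatives chosen after seeing the data were the following. Saturated spots kept in loess alone gave 0 lower at 6 h and 2 at 18 h. The dye balance of intermediate spots gave 0 at 6 and 12 h. At least 2 of 4 arrays gave 2 at 6 h and 7 genes at 1 or more times. With the tightest of the 3 dye balances, 6 genes at 6 h and 2 at 18 h had a lower limit above 0, against 1 and 0.

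The median log2 change over tested members was −0.70, −0.39 and −0.70. Members chosen in the toxin channel turned it to 0.17 at 6 h and 0.76 at 12 h, with −1.15 at 18 h. It was −0.13, −0.15 and −0.087 with median centring, −1.08, −0.55 and −1.27 with scale normalization, −0.48, −0.19 and −0.54 with the balance of intermediate spots, and −0.14, −0.12 and −0.47 over the 400 brightest genes. At 6 and 18 h it was −0.47 and −0.32 from the deposited log ratios, −0.63 and −0.50 from the scanner's, and −0.48 and −0.35 with saturated spots kept in loess alone. At 6 and 12 h it was −0.46 and −0.10 with saturated spots kept and −0.65 and −0.56 with members chosen on the other times' arrays. The 100 brightest gave −1.16 at 18 h. At 6 h alone it was −0.46 with the brightest probe, −0.53 with 2 of 4 arrays, −0.45 with both channels' ranks, −0.64 with no background correction, −0.63 with plain subtraction, −0.65 with the refitted normexp and −0.66 with the replicate block.

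Leaving out 1 array in turn (2 of the 3 left then sufficed at that time) gave 0 to 2, 0 to 1 and 3 to 5 members lower at 6, 12 and 18 h, 4 to 5 at 1 or more times, 0 higher, 0 differing between times, and medians of −0.71 to −0.40, −0.44 to −0.31 and −0.76 to −0.70. Lipase CPIJ004227 lost its call without replicate 1 or 2 at each time, sterol carrier protein-2 without 18 h replicate 1 or 2, and malate dehydrogenase 2 without 18 h replicate 3. Arrays of the same replicate number did not as a rule deviate together (correlations of −0.24 to 0.42 over 12 pairs, 4 above 0.1), so the numbers were not taken to pair the arrays. Arrays of unlike numbers gave −0.34 to 0.53 over 36 pairs, 11 above 0.1. Some arrays of different times thus shared deviations, the most 12 h replicate 1 and 18 h replicate 2 (0.53), while the main fit took all arrays as independent. The replicate block kept the counts of members lower within 1.5 times but took sterol carrier protein-2 to an adjusted p of 0.0501.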
